A study of Mus musculus with 8 samples.

Results

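A set of 6 genes that mark ependymal cells, the ciliated cells that line the brain's ventricles, was followed across the striatum of 8 mice. They are Tmem212, Ccdc153, Ak7, Rarres2, Dynlrb2 and Foxj1, chosen by name with earlier results of these data known. Each has 1 probe set whose platform annotation gives only that symbol, so 6 of 35557 probe sets in the deposited table belong to them. All 6 passed the filter on dim probe sets. The arrays came from male C57BL/6 mice, an inbred laboratory strain, aged 6 weeks, with 2 mice in each of 4 groups and 1 whole-transcript array per mouse. Acupoint mice received MPTP, a toxin of dopamine neurons used to model Parkinson's disease, at 20 mg/kg every 24 h for 4 weeks, and had needles inserted at the acupoints GB34, to 3 mm, and LR3, to 1 mm. Non-acupoint mice received the same MPTP and were needled at the hips, also to 3 mm. Both kinds of needling ran for 14 sessions at 48 h intervals. MPTP mice received the toxin without needling, and control mice received saline. Values are log2 values after the authors' RMA normalisation, so a difference of 1 is a 2-fold difference. The values of different probe sets are not set against each other.

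Ependymal cells carry tufts of motile cilia that move cerebrospinal fluid over the ventricle walls. The lateral ventricle borders the striatum, so a striatal dissection can include part of this lining. Motile cilia are built around an axoneme, a microtubule scaffold with dynein motors, radial spokes and a central pair. Foxj1 is the forkhead transcription factor that switches on motile cilium genes. Dynlrb2 encodes a roadblock-type dynein light chain, Ak7 an adenylate kinase of motile cilia, and Ccdc153 a coiled-coil protein of the axoneme. Tmem212 encodes a membrane protein of little-known function that serves as an ependymal marker. Rarres2 encodes chemerin, a secreted signalling protein. Epithelial cells of the choroid plexus, which secrete cerebrospinal fluid, are ciliated as well.

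Promoters of 4 members were available in a RefSeq table of mouse assembly GRCm38.p6, with 250 bases before and 50 after each start. They are shown because these members had low values in the same arrays and because the factors of motile cilium genes bind known motifs. Capitals mark 3 motifs on either strand, which were chosen after the promoters had been seen: the X-box consensus of RFX factors, its half-site GTTGCC, and the forkhead core TAAACA.
Tmem212 (chr3:27896319-27896618, minus strand): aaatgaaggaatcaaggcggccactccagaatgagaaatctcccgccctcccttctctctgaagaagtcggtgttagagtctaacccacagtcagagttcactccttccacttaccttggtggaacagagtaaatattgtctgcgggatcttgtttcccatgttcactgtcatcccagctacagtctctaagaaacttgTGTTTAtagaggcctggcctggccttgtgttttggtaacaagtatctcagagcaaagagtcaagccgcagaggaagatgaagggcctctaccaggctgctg
Ccdc153 (chr9:44240427-44240726, plus strand): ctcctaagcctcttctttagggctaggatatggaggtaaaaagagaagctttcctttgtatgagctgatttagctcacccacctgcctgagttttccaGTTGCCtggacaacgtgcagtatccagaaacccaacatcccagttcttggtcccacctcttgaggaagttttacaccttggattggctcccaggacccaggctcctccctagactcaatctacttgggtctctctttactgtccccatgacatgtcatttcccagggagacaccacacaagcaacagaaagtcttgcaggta
Ak7 (chr12:105705732-105706031, plus strand): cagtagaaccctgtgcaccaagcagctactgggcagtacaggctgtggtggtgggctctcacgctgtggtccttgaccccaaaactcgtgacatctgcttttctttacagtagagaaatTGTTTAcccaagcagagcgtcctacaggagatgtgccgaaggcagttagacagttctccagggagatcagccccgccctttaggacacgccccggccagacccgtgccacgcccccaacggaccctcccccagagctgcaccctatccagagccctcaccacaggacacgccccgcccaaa
Dynlrb2 (chr8:116504765-116505064, plus strand): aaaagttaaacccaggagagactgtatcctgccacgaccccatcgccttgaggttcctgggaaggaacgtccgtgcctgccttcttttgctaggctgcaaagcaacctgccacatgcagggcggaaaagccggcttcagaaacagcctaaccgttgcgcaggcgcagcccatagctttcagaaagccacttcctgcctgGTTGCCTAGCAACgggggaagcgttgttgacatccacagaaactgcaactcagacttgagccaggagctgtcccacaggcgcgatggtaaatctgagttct

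The X-box consensus was found in 1 of these 4 promoters, that of Dynlrb2, where it overlaps a GTTGCC half-site and begins 51 bases before the start. Among all 32851 promoters of the table, 1.53% hold it. GTTGCC was found in 2 of the 4, Dynlrb2 and Ccdc153, against 12.5% of all promoters. TAAACA was found in 2 of the 4, Tmem212 and Ak7, against 13.4% of all promoters, and in both it lies on the strand opposite to the gene. These matches describe letters and show no binding.

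The arrays differed in their markers of neighbouring tissue, and MPTP mouse 1 stood furthest from the striatum label. Its 14 striatal projection neuron markers averaged -2.09 relative to the control mean, while the other 7 arrays lay between -0.66 and 0.36. Thalamus markers (12 measured) averaged 0.68 and -0.06 in acupoint mice, 0.25 and 1.52 in non-acupoint mice, 2.34 and -0.56 in MPTP mice, and 0.00 in each control. Non-acupoint mouse 2, the array with the highest value of 5 members, thus had the second-highest thalamus mean and, at -0.66, the second-lowest striatal mean. Choroid plexus markers (16 measured) were high in both non-acupoint mice, at 1.93 and 2.64, in acupoint mouse 1, at 2.17, and in MPTP mouse 1, at 1.95. They lay between -0.16 and 0.07 in acupoint mouse 2, MPTP mouse 2 and the controls. The member differences from the MPTP group and the counts of the main cilium, ependymal and septum lists are therefore also given without MPTP mouse 1, a choice made for the lists after seeing the data. The covariate fits and the ranking of single genes by likeness were run with all 8 arrays only. In whole tissue, fewer ependymal cells and less RNA per cell cannot be told apart.

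Across the 8 arrays, 5 of the 6 members shared a shape, with their lowest value in MPTP mouse 1 and their highest in non-acupoint mouse 2. Foxj1 was lowest in MPTP mouse 2 and highest in non-acupoint mouse 1. The mean of the 6 members, relative to the control mean, was 0.14 and -0.10 in acupoint mice, 0.17 and 0.39 in non-acupoint mice, -0.60 and -0.33 in MPTP mice, and 0.00 in each control. All 6 members lay below their control mean in both MPTP mice, and all 6 lay above it in non-acupoint mouse 2. The arrays of the MPTP group were thus the low ones, and those of the acupoint group fell on both sides of the controls.

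**Figure D1:**
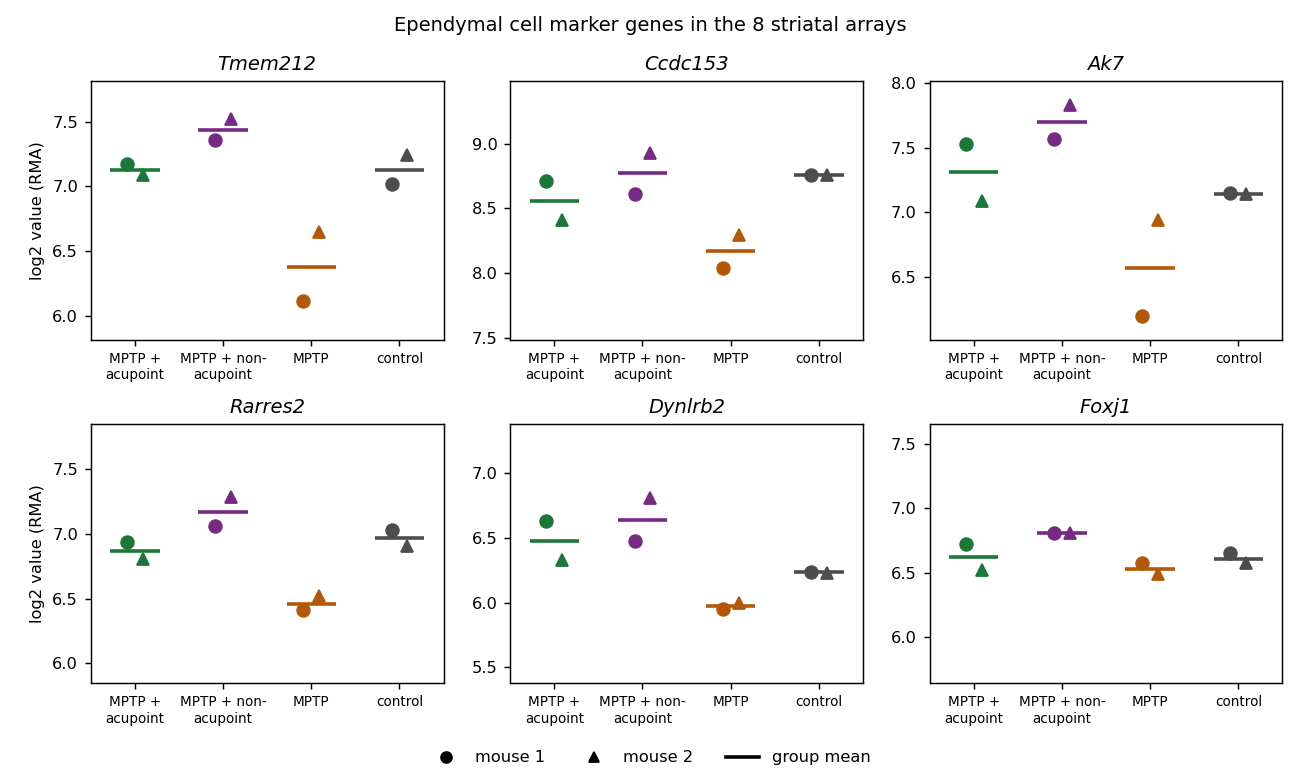
Each panel plots the log2 values of 1 member (y axis, with a span of 2 log2 units in every panel) in the 8 arrays by group (x axis). Circles are mouse 1, triangles mouse 2 and lines the group means. The MPTP mice sit lowest for the first 5 members, while Foxj1 spans only 0.32 over all arrays.

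Tmem212 had log2 values of 7.17 and 7.09 in acupoint mice, 7.36 and 7.52 in non-acupoint mice, 6.11 and 6.65 in MPTP mice, and 7.02 and 7.24 in controls. Both MPTP mice lay below every other array, and both non-acupoint mice lay above every other array. Its range of 1.42 was wider than that of 96.8% of the tested probe sets. In the order of group means (SD, n = 2), non-acupoint (7.44 ± 0.12) stood first and MPTP (6.38 ± 0.39) last, while acupoint (7.13 ± 0.06) and control (7.13 ± 0.15) overlapped.

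Ak7, the ciliary adenylate kinase, had values of 7.53 and 7.09 in acupoint mice, 7.57 and 7.83 in non-acupoint mice, 6.20 and 6.94 in MPTP mice, and 7.15 and 7.14 in controls. It had the widest range of the 6 members, 1.63, and also the widest gap between the MPTP mice. The acupoint mice lay on both sides of the controls. By group means (SD, n = 2), the order was non-acupoint (7.70 ± 0.18), acupoint (7.31 ± 0.31), control (7.14 ± 0.01) and MPTP (6.57 ± 0.53).

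Ccdc153, the axonemal coiled-coil gene, had values of 8.71 and 8.41 in acupoint mice, 8.61 and 8.93 in non-acupoint mice, 8.04 and 8.29 in MPTP mice, and 8.76 in both controls. Here the non-acupoint mice overlapped with both the acupoint mice and the controls, and only the MPTP mice lay apart. The group means (SD, n = 2) were 8.56 ± 0.21 in acupoint mice, 8.77 ± 0.23 in non-acupoint mice, 8.17 ± 0.18 in MPTP mice and 8.76 in controls, so the non-acupoint and control means were neighbours that did not differ beyond their spread.

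Rarres2, the chemerin gene, had values of 6.94 and 6.81 in acupoint mice, 7.06 and 7.29 in non-acupoint mice, 6.41 and 6.52 in MPTP mice, and 7.03 and 6.91 in controls. The MPTP mice were close together and below the rest, the acupoint mice overlapped with the controls, and the non-acupoint mice were highest. Its group means (SD, n = 2) were 6.87 ± 0.09 in acupoint mice, 7.17 ± 0.17 in non-acupoint mice, 6.46 ± 0.08 in MPTP mice and 6.97 ± 0.09 in controls. Rarres2 encodes a secreted protein and no part of the cilium, yet its values had a correlation of 0.94 with those of Ccdc153 and 0.92 with those of Tmem212 over the 8 arrays. These correlations describe arrays that share the group structure.

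Dynlrb2, the dynein light chain, had values of 6.63 and 6.33 in acupoint mice, 6.48 and 6.81 in non-acupoint mice, 5.95 and 6.00 in MPTP mice, and 6.24 and 6.23 in controls. All 4 needled mice lay above both controls, and both MPTP mice lay below them. The acupoint and non-acupoint mice overlapped with each other. By group means (SD, n = 2), the order was non-acupoint (6.64 ± 0.23), acupoint (6.48 ± 0.21), control (6.24) and MPTP (5.97 ± 0.04).

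Foxj1, the transcription factor, had values of 6.72 and 6.52 in acupoint mice, 6.81 and 6.81 in non-acupoint mice, 6.58 and 6.49 in MPTP mice, and 6.65 and 6.58 in controls. The non-acupoint mice were highest, and the acupoint mice overlapped with both the MPTP mice and the controls. Only 27.0% of the tested probe sets had a smaller range. Its correlation with the other members was between 0.63 (Tmem212) and 0.81 (Dynlrb2), while the other 5 were correlated with each other at 0.79 to 0.95. The table holds no detection calls, so how far any of these values lies above background was not tested.

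The first comparison asks what MPTP alone did. All 6 members had lower values in MPTP mice than in controls with no overlap between the 4 arrays, which was so for 12.1% of all tested probe sets. For Foxj1 the gap was below the printed precision, with 6.58 in both MPTP mouse 1 and control mouse 2. None passed limma's adjusted threshold, and neither did any other probe set (0 of 16342, or 0.0%). Tmem212 differed by -0.75 (SE 0.19, 95% confidence interval -1.19 to -0.31), which is 0.593 of the control level, with adjusted p = 0.93. Ccdc153 differed by -0.59 (SE 0.16), Ak7 by -0.57 (SE 0.26), Rarres2 by -0.51 (SE 0.12) and Dynlrb2 by -0.26 (SE 0.15), each with adjusted p = 0.93. Foxj1 differed by -0.08, with an interval of -0.33 to 0.17. An unadjusted p under 0.05 was reached by 3 members, Rarres2, Tmem212 and Ccdc153, against 1.88% of probe sets that did so on the lower side. The median of the 6 members was -0.54, against 0.01 over all tested probe sets.

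Without MPTP mouse 1, all 6 differences kept their sign: -0.48 for Tmem212, -0.47 for Ccdc153, -0.45 for Rarres2, -0.24 for Dynlrb2, -0.20 for Ak7 and -0.13 for Foxj1. Ak7, Tmem212 and Foxj1 moved by over 1.5 times, and no adjusted p was below 0.94. With MPTP mouse 2 left out instead, the single remaining array of the group is assumed to vary like the other groups. Tmem212 then differed by -1.03, Ak7 by -0.94 and Ccdc153 by -0.72. These values rest on MPTP mouse 1 alone, whose striatal projection neuron markers averaged -2.09 and thalamus markers 2.34 relative to the control mean.

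The second comparison asks whether acupoint needling moved these genes in MPTP-treated mice. All 6 members had higher means in acupoint mice than in MPTP mice, and for 5 the arrays did not overlap, as for 8.41% of all tested probe sets. None passed limma's adjusted threshold (0.0% of all did), and the adjusted p lay between 0.90 and 0.91. Tmem212 differed by 0.75 (SE 0.19), a 1.68-fold level, and Ak7 by 0.74 (SE 0.26). Dynlrb2 differed by 0.51 (SE 0.15), Rarres2 by 0.41 (SE 0.12) and Ccdc153 by 0.40 (SE 0.16). Foxj1 overlapped and differed by 0.09 (interval -0.16 to 0.34). Those 5 members had an unadjusted p under 0.05, against 1.04% of probe sets on the higher side. This comparison starts from the same MPTP arrays as the first, so the 2 are not independent. Without MPTP mouse 1 the differences were 0.48 for Tmem212, 0.48 for Dynlrb2, 0.37 for Ak7, 0.36 for Rarres2, 0.27 for Ccdc153 and 0.14 for Foxj1.

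The third comparison asks the same of hip needling, and here the differences were widest. All 6 members were higher in non-acupoint mice than in MPTP mice without overlap, as were 15.4% of all tested probe sets. Ak7 differed by 1.13 (SE 0.26), a 2.19-fold level, and Tmem212 by 1.06 (SE 0.19), a 2.09-fold level. Rarres2 differed by 0.71 (SE 0.12), Dynlrb2 by 0.67 (SE 0.15), Ccdc153 by 0.60 (SE 0.16) and Foxj1 by 0.27 (SE 0.11). All 6 had an unadjusted p under 0.05, against 3.51% of probe sets on the higher side. None passed limma's adjusted threshold (0.0% of all did), with adjusted p = 0.52 for Tmem212 and Rarres2 and 0.74 for Foxj1. Without MPTP mouse 1, Tmem212 differed by 0.79 and Ak7 by 0.76, and the other 4 by 0.32 to 0.65.

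**Figure D2:**
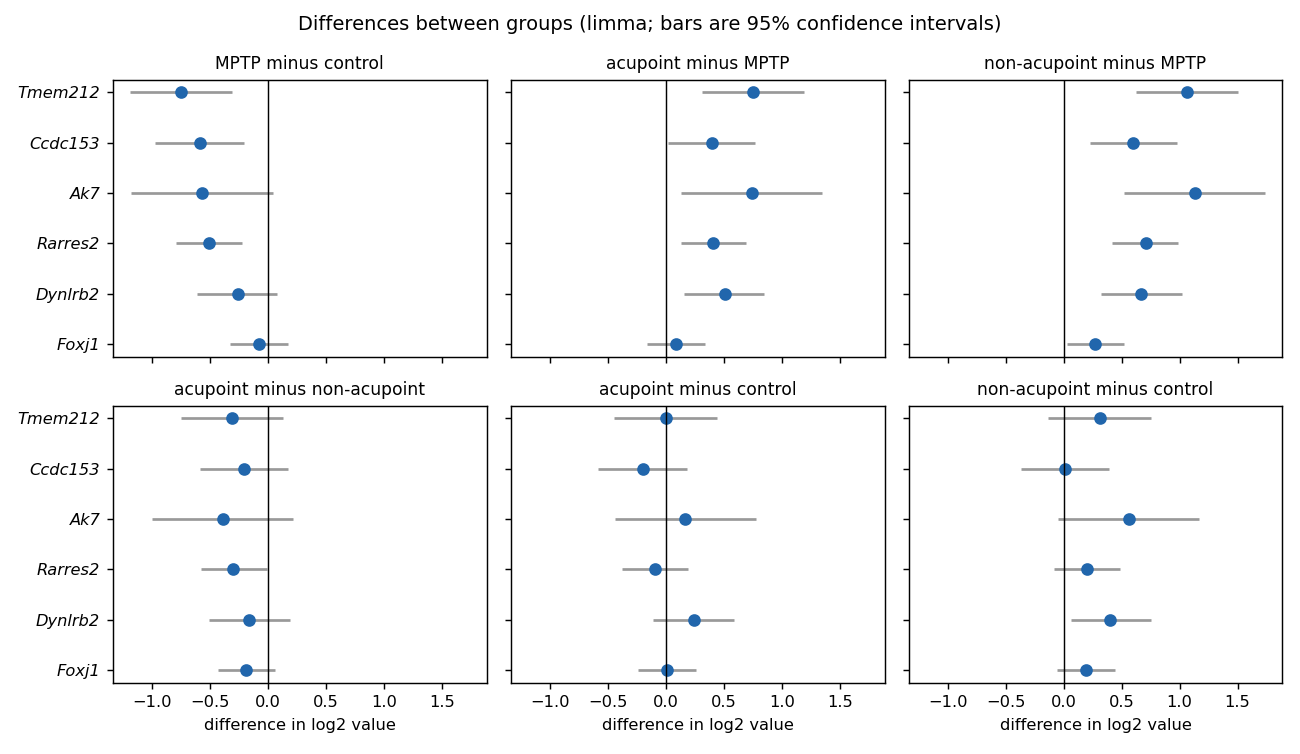
Each panel shows 1 comparison, with the difference in log2 value on the x axis and the 6 members down the page. Points are limma's differences, with the first-named group minus the second, and bars are 95% confidence intervals. All 6 points lie below 0 for MPTP minus control and above 0 for non-acupoint minus MPTP.

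The fourth comparison sets the needling sites against each other. All 6 members had lower means in acupoint than in non-acupoint mice, and 4 did not overlap (Tmem212, Ak7, Rarres2 and Foxj1), as for 24.6% of all tested probe sets. Rarres2 differed by -0.30 (SE 0.12, unadjusted p = 0.042), Ak7 by -0.39 (SE 0.26) and Tmem212 by -0.31 (SE 0.19), each with adjusted p = 0.96 in limma, where 0.0% of probe sets passed. Rarres2 was the 1 member with an unadjusted p under 0.05, against 2.12% of probe sets on the lower side. The 95% interval was -0.58 to -0.01 for Rarres2, -1.0 to 0.22 for Ak7 and -0.75 to 0.13 for Tmem212. Without non-acupoint mouse 2 the difference was -0.18 for Rarres2, -0.26 for Ak7 and -0.05 for Ccdc153, and without acupoint mouse 2 it was -0.17 for Ak7. All 16 choroid plexus markers had a lower mean in acupoint than in non-acupoint mice (median -1.12). With their mean as a covariate Rarres2 differed by -0.27 and Dynlrb2 by -0.07, both nearer 0 than in the main fit. Not every alternative gave narrower differences. Apart from leaving out single arrays, the alternatives ranged from -0.42 to -0.27 for Tmem212 and from -0.47 to -0.35 for Ak7. The ranges were -0.30 to -0.26 for Rarres2 and -0.17 to -0.07 for Dynlrb2.

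Set against controls, the acupoint group showed no common direction, with a median of 0.00, and Tmem212, Foxj1, Rarres2 and Ak7 overlapped. Dynlrb2 was higher without overlap (0.24, SE 0.15; 12.7% of probe sets were so) and Ccdc153 lower without overlap (-0.20, SE 0.16; 21.2% were so). None of the 6 had an unadjusted p under 0.05, against 1.91% of probe sets. In the non-acupoint group all 6 means were higher than in controls, 5 without overlap, as for 26.9% of probe sets. Ak7 differed by 0.56 (SE 0.26), Dynlrb2 by 0.40 (SE 0.15) and Ccdc153 by 0.01 (SE 0.16), and Dynlrb2 was the 1 member with an unadjusted p under 0.05, against 3.76% of probe sets on the higher side. Without non-acupoint mouse 2, 5 members were higher and 1 was lower than in controls. Dynlrb2 then differed by 0.24, Rarres2 by 0.09 and Ccdc153 by -0.15, so the sign of Ccdc153 was not kept. All 16 choroid plexus markers were higher in non-acupoint mice than in controls (median 2.03), and with their mean as a covariate Dynlrb2 differed by 0.22, Foxj1 by 0.04 and Tmem212 by 0.53. No probe set passed limma's adjusted threshold in either (0.0%), and the smallest adjusted p of a member was 0.77. A moderated F-test over the 4 groups gave an unadjusted p under 0.05 for 5 members, all but Foxj1, against 3.71% of probe sets, and limma's adjusted p was 0.92 for each member. With MPTP mouse 1 left out it did so for 4 members, against 9.17% of probe sets, and without non-acupoint mouse 2 also for 4, against 1.69%.

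Other ependymal markers followed the members in part. Of 22 listed and measured, 17 passed the filter. In MPTP mice against controls, lower values were found for 14 of 17 (median -0.23), 5 of them at an unadjusted p under 0.05, and limma called 0. In non-acupoint against MPTP mice, 16 of 17 were higher and 10 had an unadjusted p under 0.05 (median 0.57), and in acupoint against MPTP mice 15 of 17 were higher and 4 had one (median 0.27). Limma called 0 in both. Over all tested probe sets, 54.3% were higher in MPTP mice than in controls. Against MPTP mice, 48.5% were higher in non-acupoint and 40.3% in acupoint mice. An unadjusted p under 0.05 was reached by 1.88% on the lower side in MPTP mice against controls. On the higher side against MPTP mice, the share was 3.51% for non-acupoint and 1.04% for acupoint mice. When MPTP mouse 1 was left out, 15 of 17 were lower in the MPTP mouse than in controls (median -0.25), 16 were higher in non-acupoint mice (median 0.46) and 16 in acupoint mice (median 0.26) than in the MPTP mouse. Without non-acupoint mouse 2 the median between non-acupoint and MPTP mice was 0.34, with 15 higher and 2 lower. The 3 with the highest levels are shared with other cell types, and Vim alone among them lay near the members, with a correlation of 0.93 with their mean. Vim, an intermediate filament gene, differed by -0.23 between MPTP mice and controls, Pltp, a phospholipid transfer protein, by 0.22, and S100b, a calcium-binding protein abundant in astrocytes, by 0.08.

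Genes of the motile axoneme lay in the same direction. Of 46 measured, 41 were tested, of which 35 were lower in MPTP mice than in controls (median -0.14), with 4 at an unadjusted p under 0.05. In non-acupoint against MPTP mice 37 of 41 were higher (median 0.31), 20 of them at an unadjusted p under 0.05, and in acupoint against MPTP mice 31 were higher (median 0.13) and 4 had such a p. Of all tested probe sets, 1.88%, 3.51% and 1.04% had such a p on the same side in these 3 comparisons. The shares with higher values were 54.3%, 48.5% and 40.3%. Limma called 0 of the 41 genes in each. Leaving out MPTP mouse 1, the medians were -0.13, 0.30 and 0.13 for these 3 comparisons, with 34 lower, 35 higher and 28 higher. Without non-acupoint mouse 2, 34 genes were higher and 7 lower in non-acupoint than in MPTP mice (median 0.27). Rsph9, of the radial spoke head, differed by -0.23 between MPTP mice and controls, Cfap54, of the central apparatus, by -0.59, and Cfap52 by -0.47. Between non-acupoint and MPTP mice these differed by 0.32, 1.06 and 0.81.

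As a list, regulators of multiciliated cell formation did not share this shape. Of 20 measured, 18 were tested, with 9 higher and 9 lower in MPTP mice than in controls (median -0.03) and 0 at an unadjusted p under 0.05. In non-acupoint against MPTP mice 10 were higher and 8 lower (median 0.06). The 2 with an unadjusted p under 0.05 were Myb and E2f5, both higher, against 3.51% of all tested probe sets on that side. Their correlations with the member mean were 0.85 and 0.81, while those of the whole list ran from -0.84 to 0.85 (median 0.15). Without MPTP mouse 1, the list's median differences in the 2 comparisons were -0.03 and 0.00. Rfx3, an RFX factor that binds X-boxes, had values of 8.47 and 8.51 in acupoint mice, 8.64 and 8.58 in non-acupoint mice, 7.64 and 8.66 in MPTP mice, and 8.48 and 8.51 in controls, so MPTP mouse 1 alone was low. The cell cycle factor Tfdp1 differed by -0.19 and Numb, an inhibitor of Notch signalling, by 0.21 between MPTP mice and controls. The forkhead relatives Foxj2 and Foxj3 differed by -0.05 and 0.00.

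Relatives of the members from the same protein families were also compared. Dynlrb1, the widely expressed paralog of Dynlrb2, had values between 11.65 and 11.78 in all 8 arrays and differed by -0.07 between MPTP mice and controls and by 0.06 between non-acupoint and MPTP mice. Of 12 dynein light and intermediate chain genes tested, 7 were higher and 5 lower in MPTP mice than in controls (median 0.01), and without MPTP mouse 1 the numbers were 5 and 7. Among 6 nucleoside monophosphate kinases, Ak8, also an adenylate kinase of motile cilia, had the highest correlation with the member mean, 0.91. It had values of 6.50 and 6.47 in acupoint mice, 6.63 and 7.01 in non-acupoint mice, 6.00 and 6.47 in MPTP mice, and 6.60 and 6.62 in controls. The other forms Ak1, Ak3, Ak4 and Ak5 and the related kinase Cmpk1 differed between MPTP mice and controls by -0.13 to 0.12. For chemerin, the receptor gene Cmklr1 differed by -0.26 (SE 0.11) between MPTP mice and controls, and the receptors Gpr1 and Ccrl2 by -0.05 and -0.23. Cathepsin gene Ctsl differed by 0.20, and limma called 0 of the 6 tested genes of this list.

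**Figure D3:**
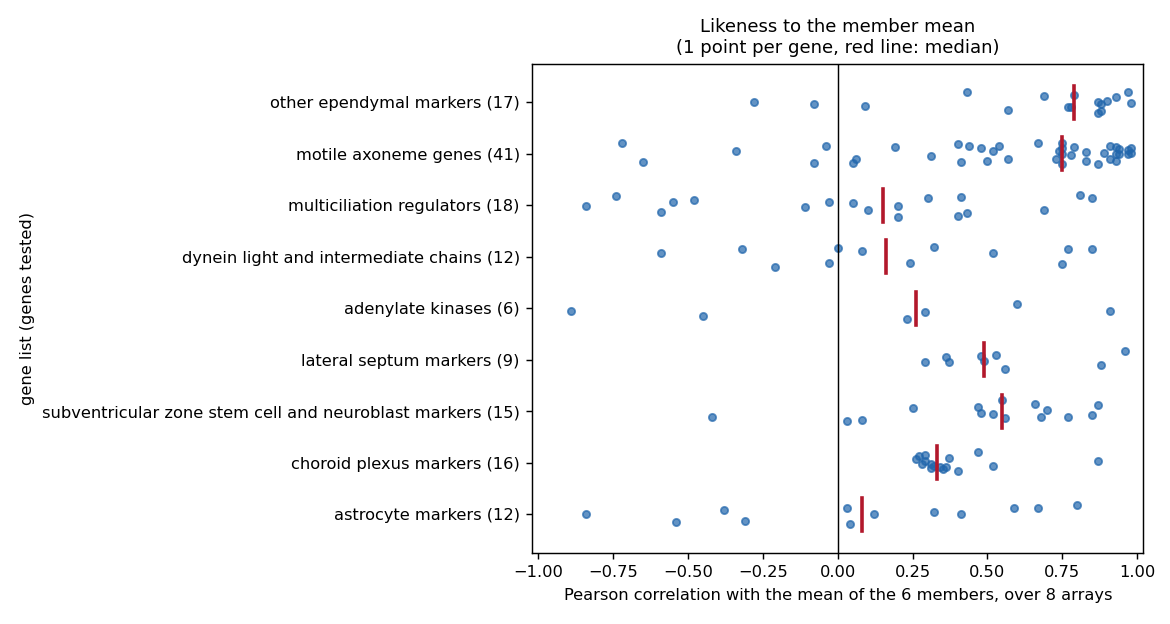
The x axis gives the Pearson correlation of each tested gene with the mean of the 6 members over the 8 arrays, and the rows are gene lists with the number of genes tested. Each point is 1 gene and red lines are medians, which are 0.79 for other ependymal markers, 0.75 for motile axoneme genes and 0.15 for multiciliation regulators.

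Genes were ranked by likeness to the members over the 8 arrays, leaving out gene models and unnamed clones. Of the 10 highest in this ranking, 6 stood in the axoneme or ependymal lists. Over all tested probe sets the median correlation with the member mean was -0.04, and 0.502% of them exceeded 0.9, beside 11 of 41 axoneme genes, 3 of 17 other ependymal markers and 0 of 18 regulators. The 10 highest of the ranked genes were Ppp1r36 (0.987), Rsph4a (0.982), Spata18 (0.978), Spa17 (0.975), Dnah5 (0.975), Cfap44 (0.974), Fam183b (0.971), Cfap54 (0.970), Armc3 (0.970) and Cdhr4 (0.966). Rsph4a encodes a radial spoke head protein and Dnah5 a heavy chain of the outer dynein arm. Rsph4a had values of 6.96 and 6.79 in acupoint mice, 7.15 and 7.34 in non-acupoint mice, 6.02 and 6.31 in MPTP mice, and 6.76 and 6.97 in controls, so both MPTP mice were low there too. Such correlations rest on 8 arrays in 4 groups and carry no test. Over the 7 arrays without MPTP mouse 1, 14 of 41 axoneme genes, 6 of 17 other ependymal markers and 577 of all 16342 probe sets exceeded 0.9.

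One by one, the members had different nearest genes, again with gene models and unnamed clones left out. For Tmem212 they were Fam183b (0.989), Rsph4a (0.984) and Cdhr4 (0.982), and for Ak7 the membrane-cytoskeleton linker Ezr (0.989), Cfap54 (0.983) and Dnah5 (0.977). Dynlrb2 was closest to 1 of the 3 probe sets of Dnah6 (0.988), a dynein heavy chain, then to Hydin (0.964), of the central apparatus, and Cfap43 (0.963). Ccdc153 was closest to Flrt2 (0.966), the chemokine receptor gene Cxcr4 (0.964) and the transcription factor gene Sox9 (0.956), none of them axoneme genes. Rarres2 was closest to Spata18 (0.976), Ppp1r36 (0.961) and Snora21 (0.955), and Foxj1 to Plagl1 (0.982), Nxn (0.981) and Zim1 (0.965).

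**Figure D4:**
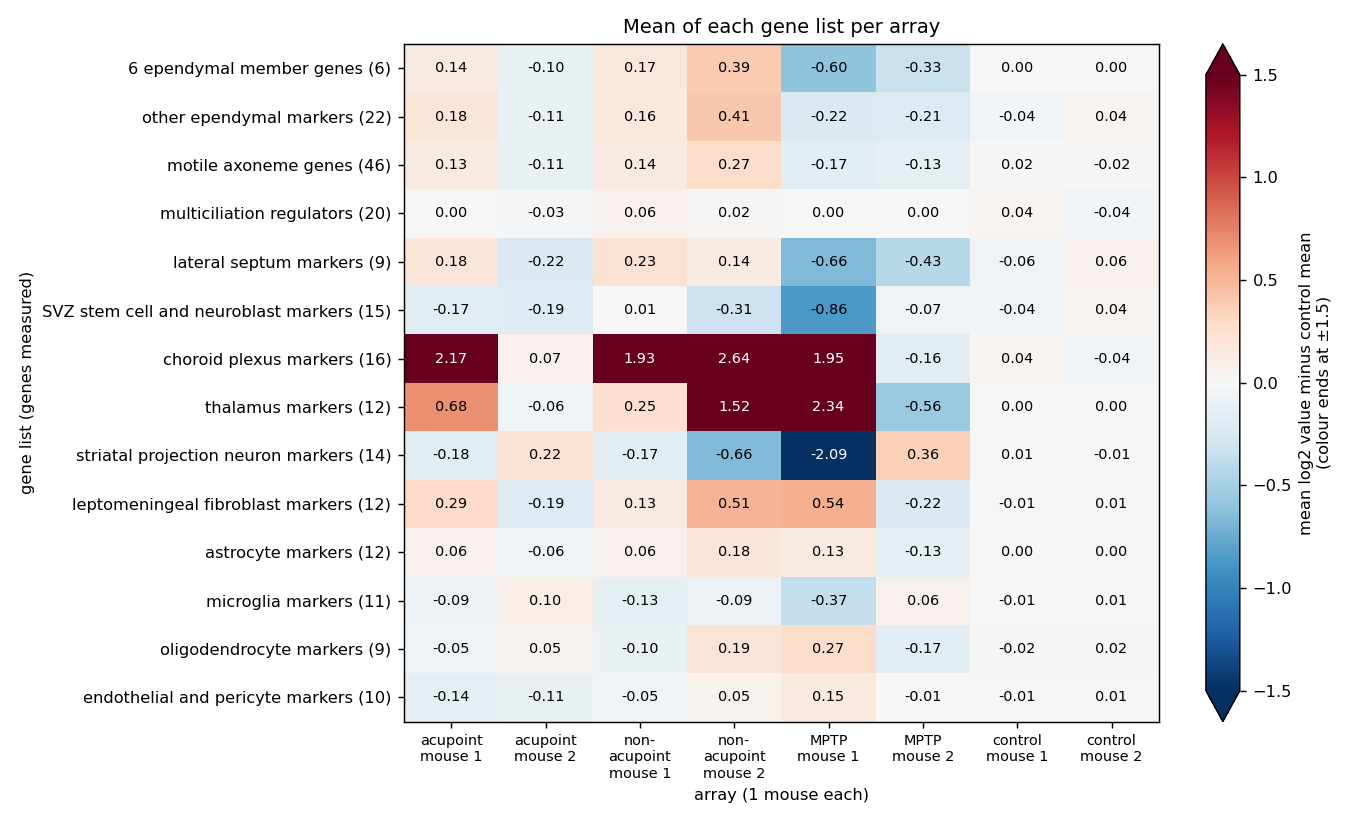
Each row is a gene list with the number of genes measured, each column 1 array, and each cell the mean log2 value minus the control mean, with colours ending at 1.5 on either side. The 6 members are lowest in both MPTP mice, at -0.60 and -0.33, as are the lateral septum markers, at -0.66 and -0.43, while choroid plexus markers are high in 4 arrays.

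Markers of tissue beside the ventricle varied with the members in part. Lateral septum markers (9 measured) averaged 0.18 and -0.22 in acupoint mice, 0.23 and 0.14 in non-acupoint mice, -0.66 and -0.43 in MPTP mice, and -0.06 and 0.06 in controls. All 9 had a lower mean in MPTP mice than in controls (median -0.36), and all 9 a higher mean in non-acupoint than in MPTP mice (median 0.78). Of all tested probe sets, 54.3% and 48.5% were higher in these 2 comparisons. The list was not uniform, since 4 of the 9 lay below the control mean in both MPTP mice. Zic1, Zic2 and Zic4 lay above it in MPTP mouse 1, and Lmo3 and Dgkh in MPTP mouse 2 (Zic2 and Zic4 were named after their values were seen). Without MPTP mouse 1, 7 of 9 were lower in the MPTP mouse than in controls (median -0.33) and 7 of 9 higher in non-acupoint mice (median 0.55). Over the 8 arrays the list mean had a correlation of 0.94 with the member mean, while the median correlation of its single genes was 0.49, with 1 of 9 above 0.9. On the linear scale their summed level was 4580 and 3960 in acupoint mice, 4630 and 4540 in non-acupoint mice, 2770 and 4090 in MPTP mice, and 4210 and 4610 in controls. The part of the amount of septum and ventricle wall in the members' differences was not tested. Markers of subventricular zone stem cells and neuroblasts (15 measured), which lie beneath the ependyma, averaged -0.86 in MPTP mouse 1, -0.07 in MPTP mouse 2 and between -0.31 and 0.04 elsewhere. Without MPTP mouse 1, 9 of 15 were lower in the MPTP mouse than in controls (median -0.09).

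Choroid plexus markers followed the members in some arrays. Over all 8 arrays their mean had a correlation of 0.35 with the member mean, which was 0.86 over the 7 arrays without MPTP mouse 1 and 0.07 over the 7 without non-acupoint mouse 2. Other tissue lists depended on single arrays too: the thalamus mean had a correlation of -0.15 with the member mean over 8 arrays and 0.94 without MPTP mouse 1, and the striatal neuron mean 0.41 and -0.97. For the axoneme genes these values were 0.93 and 0.96. They were 0.31 and 0.99 for the astrocyte markers and 0.11 and 0.94 for the leptomeningeal fibroblast markers. Without non-acupoint mouse 2, the correlation was 0.90 for the axoneme genes and 0.98 for the lateral septum markers. In those arrays it was -0.04 for the astrocyte and -0.26 for the leptomeningeal fibroblast markers. The part of neighbouring tissue in the members' differences was not tested. The covariate fits that follow cannot decide it, since their slopes rest only on differences between the 2 mice of a group. For the thalamus mean the widest such gap was in MPTP mice, at 2.34 and -0.56. For the choroid plexus mean, mouse 1 was the higher in both the acupoint and the MPTP pair. The member mean of mouse 1 was the higher in the acupoint pair and the lower in the MPTP pair. Septum and striatal means were not fitted. The summed choroid plexus level on the linear scale was 16500 and 2470 in acupoint mice, 14100 and 19000 in non-acupoint mice, 15100 and 1700 in MPTP mice, and 1920 and 1970 in controls. No marker is at 0 in an RMA table. MPTP mouse 1 thus had much choroid plexus signal and the lowest member mean, and MPTP mouse 2 had little of that signal and also a low member mean. With the choroid plexus mean of each array as a covariate, the difference between MPTP mice and controls was -0.67 for Tmem212, -0.62 for Ccdc153, -0.53 for Ak7, -0.52 for Rarres2, -0.33 for Dynlrb2 and -0.14 for Foxj1. Between non-acupoint and MPTP mice the same fit gave 1.19 for Tmem212, 1.20 for Ak7, 0.68 for Rarres2, 0.56 for Dynlrb2 and Ccdc153, and 0.18 for Foxj1. With the thalamus mean as a covariate, Tmem212 differed by -0.64 between MPTP mice and controls and by 1.06 between non-acupoint and MPTP mice (adjusted p = 0.68 and 0.074 in limma). This 0.074 was the lowest limma adjusted p of any member for non-acupoint against MPTP mice, apart from fits leaving out single arrays. For the other members the lowest lay between 0.093 (Rarres2) and 0.25 (Foxj1). Their values in the thalamus fit are not given here. Means of the astrocyte markers (12) lay between -0.13 and 0.18 in the 8 arrays, those of the microglia markers (11) between -0.37 and 0.10, and those of the leptomeningeal fibroblast markers (12) between -0.22 and 0.54.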

How the data were processed

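Whole-transcript arrays were hybridised with cDNA made from 300 ng of striatal total RNA per mouse (8 mice), per the labels' protocols. Per the submitters' processing notes, the authors ran RMA in Affymetrix Expression Console (version not given in the sources used here), and the deposited table holds 1 log2 value per probe set and array. RMA corrects background, equalises the arrays' distributions and summarises probes, so a shift shared by most genes cannot be seen. Array medians lay between 6.02 and 6.12.

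Tests used the 16342 probe sets with exactly 1 symbol (of 21789) and a mean of at least 5.25, the 25th percentile. With limma 3.58.1 (R 4.3.3), 1 model covered all 4 groups and 8 arrays (4 residual and 2.94 prior degrees of freedom), adjusted by Benjamini-Hochberg at 0.05 over all tested probe sets. SEs and intervals rest on 1 spread per probe set, shared by all groups. Over all tested probe sets the SD per array was 0.357 in MPTP mice, 0.17 in each needled group and 0.116 in controls. The intervals do not carry this unequal spread. An exact permutation test of 2 arrays against 2 cannot give a p below 0.333. The labels name separate mice. Each gene of a list is represented by its probe set with the highest mean. The text names all members and the genes most correlated with them, leaving out gene models and unnamed clones. For some lists only, it also names family relatives and the 3 genes with the highest mean. Ak8, Myb and E2f5 were singled out after their values were seen. The members and lists were chosen with earlier results of these data known. Alternatives covered the filter, the normalisation, the eBayes settings, array weights, tissue markers as covariates, a replicate block and leaving out each array. The fit was tested on simulated data. The number of arrays limits the precision.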

Additional observations from a re-analysis of the deposited data

How the results depend on the processing

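Limma called 0 probe sets in each of the 6 comparisons and in the F-test, with 312 to 1076 at an unadjusted p under 0.05, and this held under most alternatives. Exceptions were the fit on only the 2 groups compared, with 1 call for acupoint and 2 for non-acupoint mice against controls, and the thalamus covariate, with 2 calls for MPTP mice against controls and 5 for non-acupoint against MPTP mice. None of these calls was a member, and the cause was not tested. Leaving out 1 array gave 0 to 1607 calls for MPTP against control, 0 to 1453 for acupoint against MPTP, 0 to 794 for non-acupoint against MPTP and 0 to 518 in the F-test. Each upper value came without MPTP mouse 2, which leaves 1 array in that group. That array was MPTP mouse 1, which stood furthest from the striatum label. Some members passed in that fit, among these many other probe sets. With 1 array left out, the acupoint minus MPTP difference of Foxj1 ranged from -0.009 to 0.188 and the acupoint minus non-acupoint difference of Dynlrb2 from -0.328 to 0.003. All other member differences in the 4 main comparisons kept their sign under every alternative run. A filter at the median level left 4 of the 6 members to test. The member mean of control mice 1 and 2, at -0.001 and 0.001, became -0.029 and 0.029 with arrays centred on their medians, 0.005 and -0.005 after repeated quantile normalisation, and 0.004 and -0.004 with the median over members. With mouse number as a replicate block, 0 probe sets were called and Tmem212 differed by -0.753 between MPTP mice and controls. The numbers do not pair the mice: mouse 1 minus mouse 2 differences correlated between groups at -0.49 to 0.40. Detection calls and scanner files were not used here, and 2 mice per group limit what can be called.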
